A study of Mus musculus with 9 samples.

Results

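The regions described here are 7822 stretches of 5-hydroxymethylcytosine (5hmC) enrichment that were listed for MLL-AF9 cells and overlapped no region listed for control cells. They were chosen from 166014 autosomal regions of the MLL-AF9 list. Each shares no base with any region of the control list, has a gap of more than 1000 bp and at most 50000 bp to the nearest control region, and has a value of at least 400 in the fifth column of the list. The cells were mononuclear cells from mouse bone marrow (strain B6.SJL (CD45.1)), given the retroviral vectors MSCVneo-MLL-AF9 and MSCVpuro, or MSCVneo and MSCVpuro without the fusion as the control. Both groups therefore carried vectors of both kinds, and the fusion was expressed from a retroviral promoter and not from the Mll1 locus. Each group had 1 library of 5hmC-enriched DNA and 3 polyA RNA libraries, and 1 further library of control input DNA was not analysed here. The sources used here do not give ages, cell numbers or the number of animals behind a library. How 5hmC was captured is given in conflicting ways, as selective chemical labelling in the design text and as an antibody to 5-methylcytidine in the labels.

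5hmC is made from 5-methylcytosine by the TET dioxygenases and is an intermediate on one route by which cytosine methylation is removed. In blood cells it is known mainly from gene bodies and enhancers, and TET2 is a frequent target of mutation in myeloid disease. MLL-AF9 joins the amino-terminal part of the histone methyltransferase MLL to AF9, a subunit of elongation and DOT1L complexes, and transforms myeloid progenitors.

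The fifth column could be read as a peak score, which would make these the high-scoring regions found only in MLL-AF9 cells. Its values went against that reading. In all 166852 regions of the MLL-AF9 list and all 51286 of the control list the value was smaller than the width of its own region in bp. In the MLL-AF9 list its median was 215, and the median of width minus the value was also 215. In the control list both medians were 264. Divided by the width, the value averaged 49.9% ± 15.8 (SD over 166852 regions) in the MLL-AF9 list and 49.7% ± 17.5 (SD over 51286 regions) in the control list. The value was never closer than 61 bp to the start of an MLL-AF9 region, nor was it closer than 57 bp to the end.

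A base marked at this distance from the start also fell at nearly the same place in both libraries where a region was shared. Among 35888 pairs of 1 MLL-AF9 region and the only control region it overlapped, the start plus the value differed by a median of 33 bp between the libraries. Each control region of a pair had 1 MLL-AF9 region assigned to it. It could still overlap a further MLL-AF9 region that was assigned to another control region. The end minus the value differed by a median of 123 bp, and the middles of the regions by 58.5 bp. For the 9072 pairs whose MLL-AF9 value was at least 400, 48.6% (95% Wilson interval 47.6 to 49.7, counting error only) of the marked bases lay within 50 bp of each other. The share was 32.8% (31.8 to 33.8) for the middles and 14.0% (13.3 to 14.7) for the end minus the value. The pairs that agreed less well had wider differences in the marked base than in the middle: its upper quartile was 255 bp, against 182 bp for the middle. Among 4345 pairs with both regions at least 800 bp wide, the median difference was 84 bp for the marked base and 71 bp for the middle, although more marked bases (43.5% against 38.9%) lay within 50 bp. The value is therefore given below as the distance of a marked base from the start of its region. MACS, one of the tools named in the submitters' processing notes, writes such a distance for the summit of a peak, but the lists do not name the column. No height, enrichment or p-value per region was used here.

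**Figure D1:**
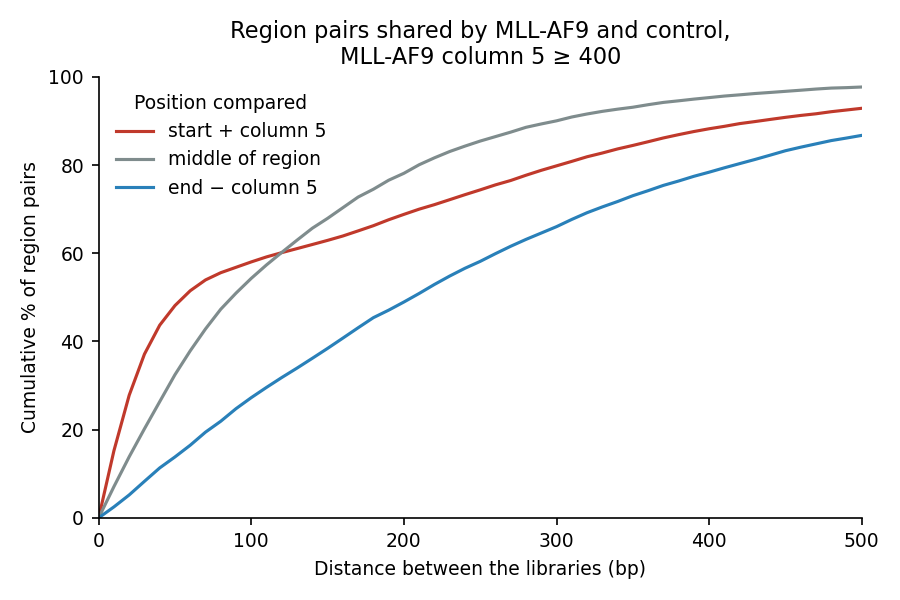
Cumulative percentage of 9072 shared region pairs (MLL-AF9 value of at least 400) against the distance in bp between the MLL-AF9 and the control position, for the start plus the fifth column, the middle of the region, and the end minus the fifth column. The start plus the column rises fastest, reaching 48.6% within 50 bp, and is overtaken by the middle at larger distances.

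What the limit of 400 selected was therefore a place within the region and, through it, the width. Of 122411 autosomal regions found only in MLL-AF9 cells, 86565 lay at the required gap, and 7822 of these (9.04%) had their marked base at least 400 bp from the start. No region narrower than 400 bp could pass, which removed 40196 regions. The share selected rose from 9.60% of the 10865 regions of 500 to 599 bp to 32.5% of the 6148 regions of 600 to 699 bp and 79.3% of the 164 regions of at least 1600 bp. The selected regions had a median width of 745 bp (quartiles 645 and 919.8, range 479 to 3209) and covered 6.39 Mb. The regions at the same gaps that were not selected had a median of 396 bp. In the selected regions the marked base lay a median of 500.5 bp from the start and 221 bp from the end. These widths and positions follow from the rule and are given as a description.

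The same rule applied from the other end gave nearly the same kind of region but different regions. Of the regions at these gaps, 8586 had their marked base at least 400 bp from the end. Their median width was 742 bp, and 1146 of them were also among the selected regions, which is 14.7% of the selected and 13.3% of the mirrored regions. The regions that met both limits had a median width of 1131 bp. The remaining 7440 regions of the mirrored rule, which share no member with the selected ones, had a median width of 711 bp and serve below as a comparison of like width. This mirrored rule was chosen after seeing the data. Over all regions at these gaps the marked base lay a median of 203 bp from either end. That symmetry itself favours likeness between the selected and the mirrored regions.

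**Figure D2:**
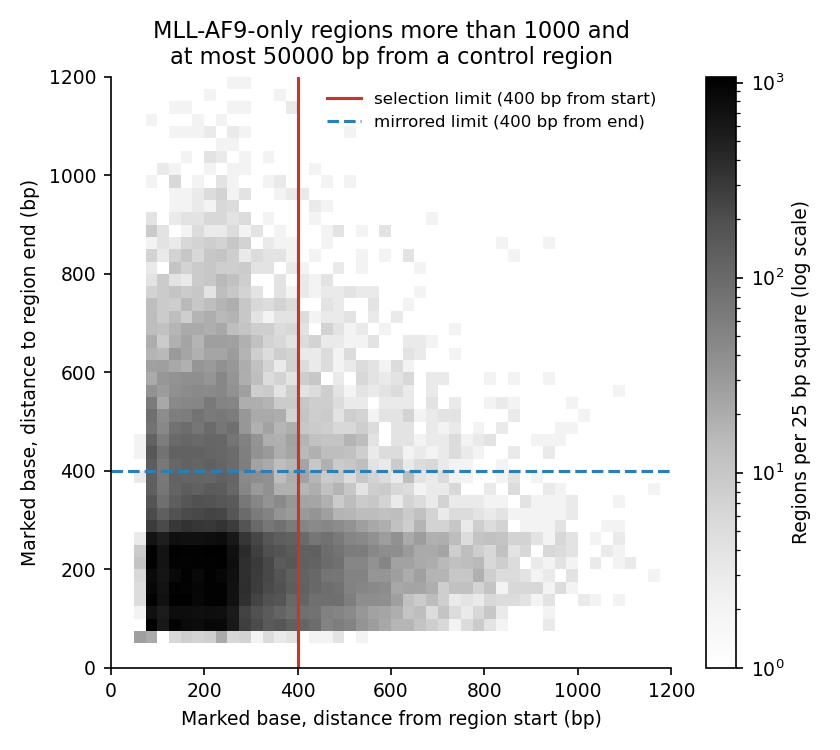
Number of MLL-AF9-only regions at gaps of 1001 to 50000 bp (grey, log scale) by the distance of the marked base from the region's start and its distance to the region's end, both in bp and shown up to 1200. The pattern is close to symmetric about the diagonal, and the selected regions are those to the right of the solid line.

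The members with the largest distances lay, in mm9, at chr16:93218203-93220407, chr4:117100837-117102962, chr1:36289881-36291981, chr13:91677950-91679988, chr16:89828406-89830631 and chr18:61916075-61918509. The first was 2205 bp wide with its marked base 1999 bp from the start and 206 bp from the end, 2471 bp from the nearest control region. The second was 2126 bp wide, with 1896 bp before and 230 bp after the marked base, and had 69 other MLL-AF9 regions and 6 control regions within 50000 bp on either side. The third lay 1236 bp from a control region, and the region on chromosome 13 lay 11952 bp from one. For all 6, the nearest control region itself overlapped an MLL-AF9 region. This held for 87.0% of all members and 84.8% of the regions at the same gaps that were not selected. These 6 had 3 to 15 control regions within 50000 bp.

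The widest members were other regions. The widest, at chr16:33937298-33940506, spanned 3209 bp with its marked base 553 bp from the start and 2656 bp from the end. The next were chr5:111713741-111716285, at 2545 bp, and chr5:125535851-125538335, at 2485 bp. The former of these lay 45169 bp from the nearest control region, the only one within 50000 bp. That control region was not found again in MLL-AF9 cells. The narrowest members, at chr13:22077231-22077709, chr10:98859293-98859772 and chr16:10818500-10818979, were 479, 480 and 480 bp wide, with 75 to 79 bp after the marked base.

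The members just inside the limits of the rule and the regions just outside are given without a test. Exactly 400 was reached by 42 members, and 399 by 43 regions at the same gaps. Just inside lay chr1:23375889-23376474 and chr1:186099753-186100356, both at 400, and just outside chr1:38727060-38727598 and chr1:55153493-55153996, both at 399. At the smaller gap limit, chr10:67254045-67254981 and chr2:33061087-33062241 lay 1001 bp from a control region, and chr14:79603112-79603828 and chr15:98683723-98684570, at 999 bp, were left out. At the larger limit, chr13:36628980-36629505 and chr15:55083295-55084272 lay at 49969 and 49906 bp, and chr6:34103760-34105111 and chr14:118110762-118111549, at 50059 and 50076 bp, were left out.

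Selected regions lay about as far from other 5hmC regions of the same library as autosomal MLL-AF9 regions did in general. The gap to the nearest other MLL-AF9 region had a median of 810 bp (quartiles 252 and 1897), and it was at most 1000 bp for 4371 members (55.9%, interval 54.8 to 57.0). Over all 166014 autosomal MLL-AF9 regions the median was 815 bp and the share 54.9%. The median was 1241 bp for regions at the same gaps with a smaller distance of the marked base, and the share within 1000 bp was 43.7% (43.4 to 44.1). It was 841.5 bp, with a share of 54.5% (53.3 to 55.6), for the regions of the mirrored rule. Among regions with the same limit of 400, the median was 243 bp for those at most 1000 bp from a control region, 1275.5 bp for those more than 50000 bp away, and 387 bp for those shared with control. In their median the members stood between the flanking and the far regions, near the mirrored regions of like width and the list as a whole. The gap limits themselves favour the order of flanking, selected and far regions. The nearest control region overlapped an MLL-AF9 region for 89.2% of the flanking, 87.0% of the selected and 77.3% of the far regions. With 1 library per group no test over replicates was possible, and regions of 1 library are not replicates.

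**Figure D3:**
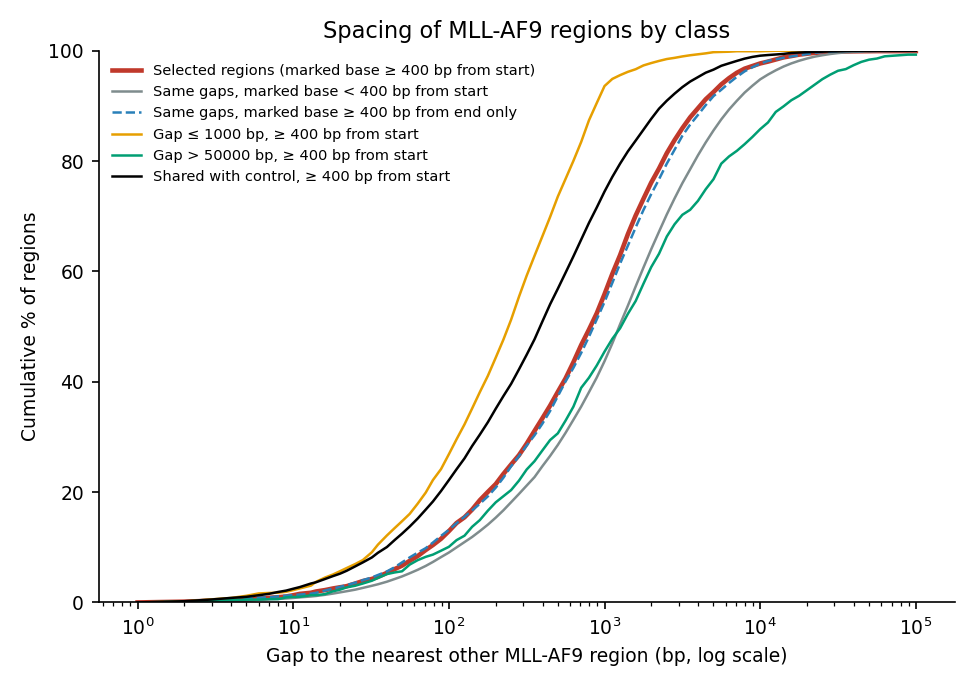
Cumulative percentage of regions against the gap to the nearest other MLL-AF9 region (bp, log scale) for the selected regions and 5 other classes of MLL-AF9 regions. The selected regions (thick line, median 810 bp) and the mirrored ones (dashed, median 841.5 bp) run together, between the shared regions (median 387 bp) and the narrower regions at the same gaps (median 1241 bp).

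Within 50000 bp on either side, a member had a median of 26 other MLL-AF9 regions (quartiles 17 and 37) and 6 control regions (3 and 12). Summed over members, there were 3.37 MLL-AF9 regions per control region. Counted in the same way, the ratio was 3.35 around the regions at the same gaps that were not selected and 2.80 around all autosomal MLL-AF9 regions. The autosomal lists themselves held 166014 and 51145 regions, a ratio of 3.25. Around shared regions with the same limit of 400 the ratio was 2.18, with medians of 34 and 14 regions. For 802 members (10.3%, interval 9.60 to 10.9) just 1 control region lay in this window. Neighbouring members share neighbours, so these counts are not independent.

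The density of MLL-AF9 regions fell with distance from the marked base of a member. That of control regions, which the rule keeps away from members, changed little beyond 2000 bp. The MLL-AF9 density was 34.3 regions per 100 kb at 1000 to 2000 bp, 31.4 at 5000 to 10000 bp and 26.5 at 20000 to 50000 bp. Control regions stood at 9.25 per 100 kb at 2000 to 5000 bp and 8.21 at 20000 to 50000 bp, and at 3.01 at 1000 to 2000 bp, where the rule thins them. Around the regions at the same gaps that were not selected, the MLL-AF9 density was 26.4 at 1000 to 2000 bp and 22.9 at 20000 to 50000 bp. Their control density was 7.49 at 2000 to 5000 bp and 7.16 at 20000 to 50000 bp, and 3.69 at 1000 to 2000 bp. Members thus had more MLL-AF9 regions around them than these narrower regions at every distance given, and more control regions beyond 2000 bp. Control regions were fewer around members at 1000 to 2000 bp, which the rule itself favours. Gaps are counted from the edge of a region, and the marked base of a member lay farther from its start (median 500.5 bp, against 192 bp).

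**Figure D4:**
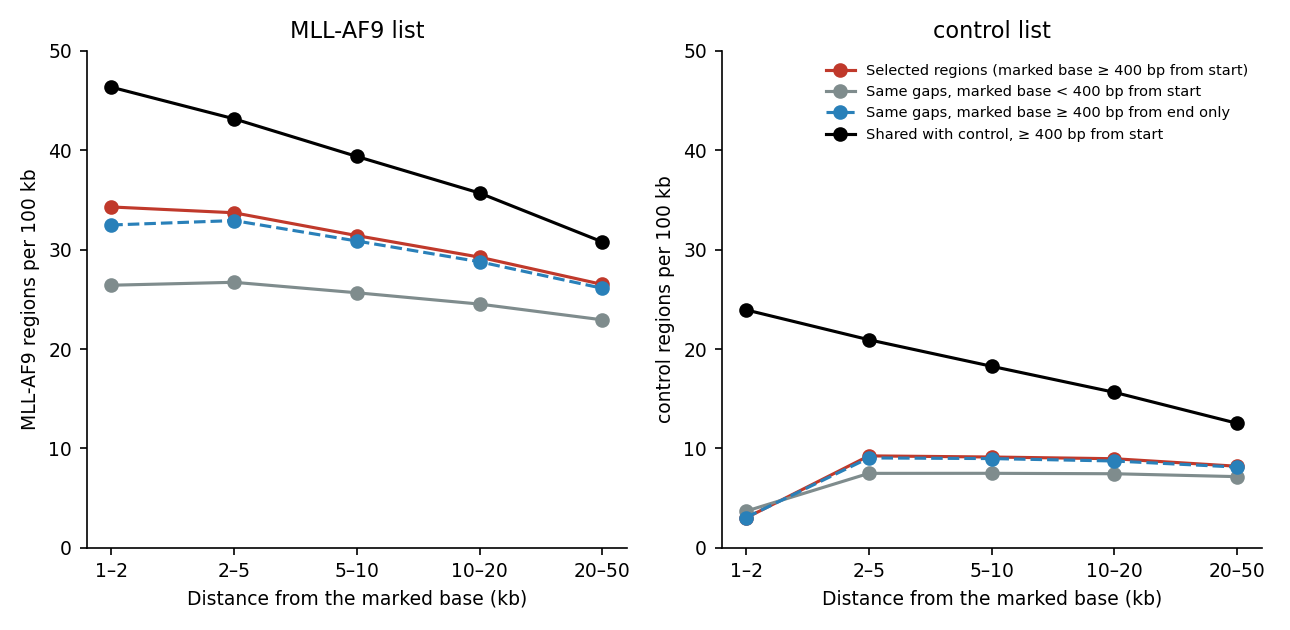
Regions per 100 kb of the MLL-AF9 list (left) and the control list (right) by distance from the marked base in kb, for 4 classes of MLL-AF9 regions. Selected and mirrored regions overlie each other in both panels, from 34.3 and 32.5 MLL-AF9 regions per 100 kb at the nearest distance to 26.5 and 26.1 at the farthest.

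Members nearer to a control region were slightly wider and more closely packed. The 3546 members with a gap of up to 5000 bp had a median width of 756 bp and a median of 659 bp to the nearest other MLL-AF9 region. For the 3101 members with a gap of 5001 to 20000 bp these medians were 740 and 924 bp, and for the 1175 members with a gap of more than 20000 bp they were 724 and 1116 bp. MLL-AF9 regions outnumbered control regions within 50000 bp by 2.88, 3.81 and 6.49 to 1 in these sets, an order that the gap limits themselves favour. The gap limits also favour the order of the distances to the nearest other MLL-AF9 region, since most of the nearest control regions overlapped an MLL-AF9 region.

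The control regions next to members were mostly found again in MLL-AF9 cells. The 7822 members had 6151 distinct nearest control regions, of which 4925 served 1 member, 919 served 2 and 307 served 3 to 8. Of the 6151, 5307 (86.3%, interval 85.4 to 87.1) shared a base with an MLL-AF9 region, compared with 36434 (81.0%, 80.6 to 81.3) of the 44994 autosomal control regions that were nearest to no member. Counted by member, the share was 87.0% (86.2 to 87.7), against 84.8% (84.6 to 85.1) for the narrower regions at the same gaps and 86.9% (86.1 to 87.6) for the mirrored ones. It was 89.1% (88.1 to 90.1) for members with a gap of up to 5000 bp and 82.0% (79.7 to 84.1) for those beyond 20000 bp. Control neighbours of members had a median width of 548 bp, against 574 bp for the other control regions. The nearest control region lay on the side of higher coordinates for 50.1% of members and 49.9% of the regions at the same gaps that were not selected. Coordinates run in an arbitrary direction, so a near-even share is favoured in advance and is given as a description.

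Seen from the control list, the members lay in 5705 of the intervals left free by control regions. Their median length, over those bounded by a control region at both ends, was 27604 bp, and they held a median of 6 MLL-AF9-only regions. The 20172 other such intervals longer than 2000 bp that held MLL-AF9-only regions but no member had medians of 11151 bp and 2 regions. The rule itself favours this difference. A member needs room for its gap on both sides, and an interval with more MLL-AF9-only regions is likelier to hold one. Most intervals with members, 4245, held 1 of them, 1051 held 2, and 20 held 6 or more. The fullest, at chr16:93215732-93291934, held 35 MLL-AF9-only regions over 76203 bp without a control region, and 11 of these were members. At chr13:52746566-52831473 and chr4:117037772-117080454, 41 and 27 MLL-AF9-only regions included 9 members each.

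Many members had another member nearby, but the density of regions itself favours this. Members made up 4.71% of autosomal MLL-AF9 regions, and a member had a median of 26 other MLL-AF9 regions within 50000 bp. The share for as many regions picked without regard to the marked base was not worked out, so the runs are a description. With members less than or equal to 50000 bp apart joined into 1 run, 5657 of the 7822 (72.3%, interval 71.3 to 73.3) had another member in their run and 2165 stood alone. The share was 75.4% for the 8586 regions of the mirrored rule. It moved with the limits of the rule, to 87.3% of 15331 regions with a limit of 300, 56.1% of 3950 with a limit of 500 and 55.6% of 4276 with a gap above 5000 bp. There were 3836 runs, of which 44 held 10 or more members, 600 in all. The members were also spread widely: 1326 of the 1938 autosomal bins of 1 Mb with an MLL-AF9 region held at least 1, with a median of 5.

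The run with the most members, at chr4:116944742-117177074, held 33 in 232 kb. Here the MLL-AF9 list had 143 regions, covering 43.7% of the run, and the control list had 13, covering 3.71%. All 13 control regions were found again in MLL-AF9 cells, and 131 of the 143 had no control counterpart. The members were 553 to 2126 bp wide (median 966), lay 1043 to 20687 bp from a control region and covered 15.5% of the run. The run thus had 11 MLL-AF9 regions per control region, against 3.25 over the autosomes.

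In the run at chr16:93038828-93287933 the control regions were few and stood in groups, with long stretches between and beside them that held MLL-AF9 regions alone. It had 25 members in 249 kb, among 108 MLL-AF9 and 12 control regions that covered 26.5% and 2.68% of it. All 12 control regions were found again in MLL-AF9 cells, and the members lay a median of 16933 bp from the nearest of them, with a range of 2471 to 32372 bp. The member with the largest distance of its marked base belongs to this run. The run at chr2:59668768-59987589 also had 25 members, in 319 kb, with 179 MLL-AF9 and 28 control regions. Of the 28 control regions 21 were found again, and its members lay a median of 5483 bp from a control region. The ratio of MLL-AF9 to control regions was 9 in the former run and 6.39 in the latter. These runs were chosen for their number of members, so their ratios are a description.

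**Figure D5:**
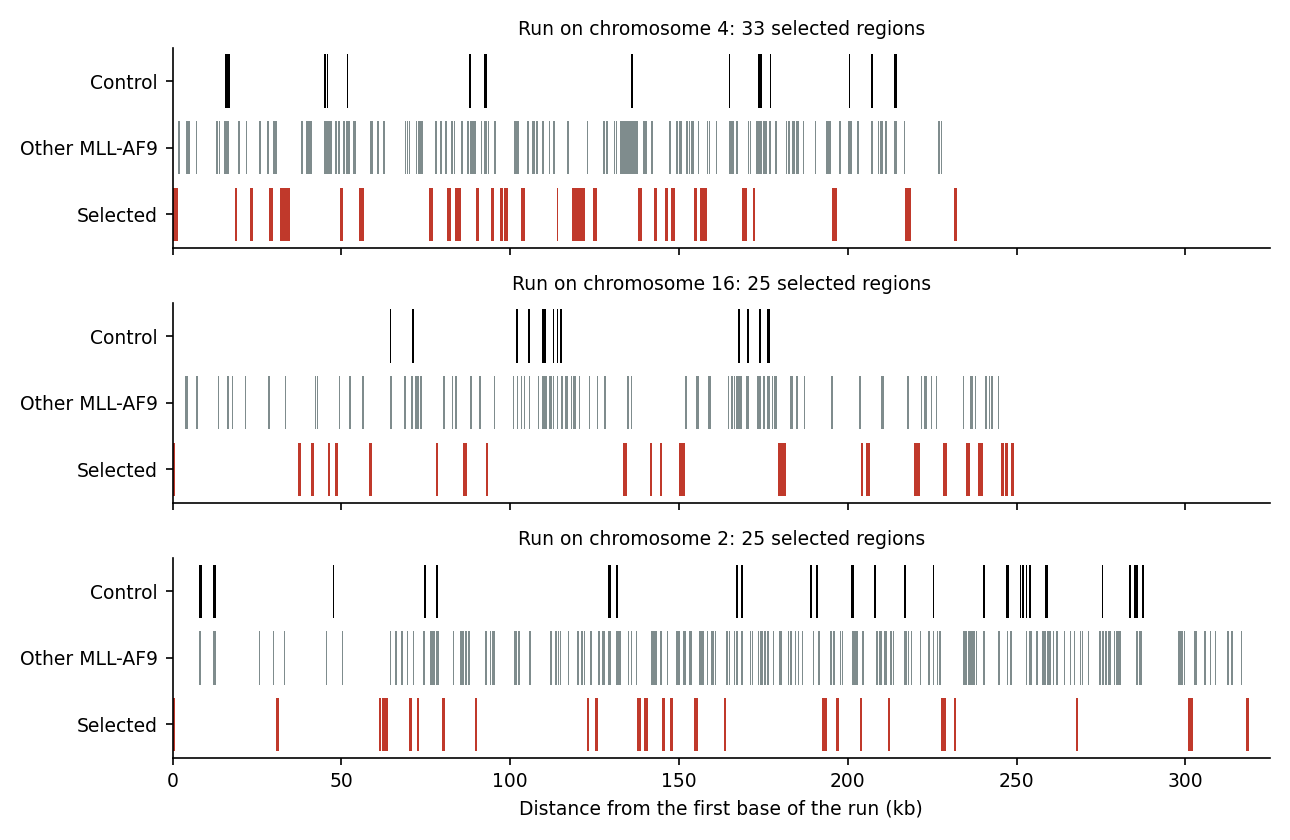
Positions of control regions (black), other MLL-AF9 regions (grey) and selected regions (red) along the 3 runs with the most members, in kb from the first base of each run, drawn to scale. The runs hold 33, 25 and 25 selected regions beside 13, 12 and 28 control regions, in 232, 249 and 319 kb.

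The bins of 1 Mb with the most members were chr16:93000001-94000000 with 36, chr17:84000001-85000000 with 33 and chr4:117000001-118000000 with 30. The bin on chromosome 17 was dense in both lists, with 403 MLL-AF9 and 157 control regions, and the bin on chromosome 4 had 220 and 32. Thus bins with like numbers of members had control regions in numbers that differed several-fold.

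Every autosome held members, from 243 on chromosome 18 to 583 on chromosome 11. As a share of the MLL-AF9-only regions of a chromosome they ranged from 5.44% (interval 5.00 to 5.90) on chromosome 2 to 7.21% (6.56 to 7.91) on chromosome 17, around 6.39% over all autosomes. Chromosome 16 followed chromosome 17 with 7.10% (6.40 to 7.87). The intervals of these chromosomes overlap, but they cover counting error only, and neighbouring regions are not independent. With the limit on the gap applied as well, the shares ran from 8.14% on chromosome 2 to 10.2% on chromosome 17, in the same place at both ends of the order. Genes, exons, promoters and sequences at these positions were not analysed here, because the annotation used is of build GRCm38 and the regions are in mm9.

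The RNA of the same series gives the setting in which these regions were found. The authors' deposited table holds 1 pooled value in FPKM (fragments per kilobase of transcript, scaled to library size) per gene and group with a q-value, so the spread between the libraries is unknown. A gene was called where the groups averaged 1 FPKM or more and the authors' deposited table gave q below 0.05. This held for 10.3% of the 11539 genes at that level, 5.13% being higher and 5.2% lower in MLL-AF9 cells. The fixed list of 22 genes of the 5hmC pathway held genes that write, oxidise, read or excise modified cytosine. It also held Ogt, Idh1, Idh2, Hells, Apex1 and Xrcc1, which do none of these. Of the 22, 18 were matched and all reached this mean. Among these 18, 3 rose and 0 fell, and the median log2 change of (FPKM + 1) was 0.62, against 0.29 over all 11539 genes. Tdg, Dnmt1, Dnmt3b and Zfp57 were not matched. In bulk samples, a change in the kinds of cells and a change in RNA per cell cannot be told apart.

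The genes that rose in the authors' deposited table were the dioxygenases Tet1, from 0.382 to 1.76 FPKM with q = 0.00989, and Tet2, from 6.56 to 18.7 FPKM with q = 0.0350, together with Uhrf1. Tet1 was low in both groups and was no longer counted with a minimum mean of 5 FPKM. Uhrf1 brings the maintenance methyltransferase to newly copied DNA and rose from 49.6 to 78.1 FPKM, with a q of 0.0494 by the authors' deposited table. The third dioxygenase, Tet3, was listed at 9.31 FPKM in control and 17.5 FPKM in MLL-AF9 cells (q = 0.306 there) and did not pass. Dnmt3a, a methyltransferase for unmethylated sites, just missed the limit in the authors' deposited table, where q was 0.0502 and the values were 4.96 FPKM in control and 10.3 FPKM in MLL-AF9 cells. Idh1, which makes the TET cosubstrate 2-oxoglutarate in the cytosol, was listed at 70.8 FPKM in control and 42.2 FPKM in MLL-AF9 cells. Its mitochondrial counterpart Idh2 was listed at 43.7 and 57.9 FPKM in the same order, and neither passed.

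Markers of cell types differed between the groups in the same table. All 4 pan-leukocyte genes were present in both groups and none was called. In the authors' deposited table Ptprc stood at 257 FPKM in control and 142 FPKM in MLL-AF9 cells, and Laptm5 at 483 and 632 FPKM in the same order. Coro1a stood at 1458 and 861 FPKM there, and Cd52 at 1961 and 648 FPKM. Cd52 just missed the limit, with q = 0.0507 in the authors' deposited table. Of the fixed markers, 5 of 5 late granulocyte, 4 of 4 B lymphoid, 4 of 4 T and NK and 4 of 4 erythroid genes fell, and 3 of 4 genes of immature blood cells rose. In the authors' deposited table the latter were Cd34, from 19.3 to 78.2 FPKM, Myb, from 61.3 to 282 FPKM, and Flt3, from 5.75 to 160 FPKM, while Kit was listed at 14.3 FPKM in control and 12.9 FPKM in MLL-AF9 cells and did not pass. Summed over its markers, the late granulocyte list stood at 54861 FPKM in control and 4880 FPKM in MLL-AF9 cells, and the B lymphoid list at 501 and 32.1 FPKM. Of 4 monocyte genes 0 rose and 0 fell. Of 4 stromal and endothelial genes Pdgfrb and Pecam1 rose, while Cdh5 and Col1a1 stayed under the mean of 1 FPKM and went the other way. In the authors' deposited table Cdh5 stood at 0.634 FPKM in control and 0.151 FPKM in MLL-AF9 cells, and Col1a1 at 0.744 and 0.248 FPKM. The genes of this list thus did not move together. The part of this difference in cell makeup in the 5hmC regions found only in MLL-AF9 cells was not tested, and with 1 5hmC library per group it cannot be told apart from the other differences between the libraries.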

How the data were processed

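The 5hmC lists were deposited as regions per library without a header. The fifth column was taken as a distance in bp within the region, from its values. It is not named per the file headers or labels. The submitters' processing notes name build mm9, Bowtie 0.17.2 and MACS 1.4, and also Cufflinks 1.3.0, TopHat 1.4.1 and CASAVA 1.8.2. The sources used here do not give their settings or whether the input library entered peak calling. The RNA values were deposited by the authors as 1 value per group, taken as FPKM from the tools and values, with a p-value and a q-value from the authors' own comparison. Reads per library are unknown.

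Gaps are the bases between regions, an overlap is at least 1 bp, and coordinates count from 1. The member count was checked with bedtools 2.31.1, and the interval functions were tested on simulated data. Python 3.11.15, numpy 2.4.6, pandas 2.3.3, scipy 1.17.1 and matplotlib 3.10.9 were used. Wilson intervals cover counting error only. No test was run on regions, since each group had 1 library. The planned design took the fifth column as a score and called for expression at member regions, which needs gene positions in mm9 and was not run. Named regions are the 6 with the largest value, the 3 widest and narrowest, 2 on each side of each limit, and the 3 leading runs and bins. Intervals were named by the same number. Named genes are Tet1, Tet2, Tet3 and called genes of the fixed list. Dnmt3a, Idh1, Idh2 and the single cell type markers were named after their values were seen. The members, gene lists and limits were chosen with earlier results of these data known.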

Additional observations from a re-analysis of the deposited data

Results flagged for a closer look

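The rule left out the sex chromosomes, which the comparisons above do not use. The MLL-AF9 list held 819 regions on chromosome X, against 141 in the control list, a ratio of 5.81 compared with 3.25 over the autosomes. It held 19 regions on chromosome Y, where the control list had 0. Both numbers are above the control level, and neither was tested, since each group had 1 library and the sex of the animals is not given in the sources used here.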

How the results depend on the processing

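The main values were 7822 selected regions, a median width of 745 bp, a median of 810 bp to the nearest other MLL-AF9 region and 87.0% of members next to a control region that was found again. With a limit of 300 there were 15331 regions, 635 bp wide and 916 bp apart, and with 500 there were 3950, at 868 bp and 717.5 bp. A gap above 5000 bp gave 4276 regions, 735 bp, 960.5 bp and 85.2%, and one of at most 20000 bp gave 769 bp and 87.9%. With control regions at or above their median value only, the values were 769 bp wide, 651 bp and 89.0%. That setting drops control regions by the place of their marked base, so a region counted there may overlap a dropped control region. Joining regions less than 500 bp apart gave 872 bp and 1430.5 bp. A joined region kept the largest value of its parts, which need not be a distance from its own start. Both settings were planned with the fifth column taken as a score. Of the alternatives chosen after seeing the data, the mirrored rule (8586 regions, 742 bp, 803 bp, 87.2%) left all 4 values within 1.5 times or inside their intervals. The near symmetry of the marked base within regions favours this likeness in advance. A width of at least 800 bp gave 5361 regions, 942 bp, 668 bp and 89.0%. Over all alternatives, with the count of called 5hmC pathway genes included, 20 comparisons moved beyond these bounds and 16 did not. Including the sex chromosomes gave 7834 regions. The limits fix the numbers and widths by construction, and joining removes the shortest gaps. The count of called 5hmC pathway genes was 3 with no minimum mean and 2 with a minimum of 5 FPKM, which left out Tet1. A pseudocount of 0.1 does not enter these calls. No paired analysis was possible because each group had 1 5hmC library and the RNA values are pooled. Reads per library are unknown, so no result here can separate regions gained in MLL-AF9 cells from regions below detection in the control library.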
